A study of Homo sapiens with 2 samples.

Results

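The ZBTB genes encode transcription factors with a BTB domain at one end and C2H2 zinc fingers at the other. They were taken here as all protein-coding genes whose symbol is ZBTB followed by a number and at most 1 letter, which gave 41 of the 62699 gene IDs with counts. Of these, 36 reached a level of 1 CPM (counts scaled to library size) in at least 1 library, as did 14352 genes in all, which are called tested genes, and 5 did not. The study asked what the long non-coding RNA LINC01235 does to transcription in HCC1954, an established HER2-positive breast cancer cell line. Polyadenylated RNA was sequenced from 1 library labelled ASO-NC and 1 labelled ASO-1235. The labels do not spell out the abbreviation, and give no dose, time or number of cultures. The sample titles read NC1235 and Si1235 instead, so titles and labels do not name the reagent alike. The ASO-NC library held 48092494 counts and the ASO-1235 library 37916307.

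The BTB domain pairs these proteins with each other and binds corepressors such as NCOR1 and BCOR, and in some of them the ubiquitin ligase scaffold CUL3. The zinc fingers read DNA, and most of the characterised family members act as repressors. ZBTB10 is known to bind GC-rich sites shared with the SP factors, and with ZBTB48 it belongs to the few members known to bind telomeric repeats.

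With 1 library per group no difference has a replicate check. After TMM scaling, each gene's level in ASO-1235 was divided by that in ASO-NC, and the ratio is given with an exact (Clopper-Pearson) 95% interval that covers counting error only and no spread between cultures. LINC01235, the named target, had 1337 counts in ASO-NC and was at 0 in ASO-1235. The 6 epithelial markers checked (ERBB2, GRB7, EPCAM, KRT8, KRT18 and KRT19) were all present, at a summed 8920 and 8375 CPM. HCC1954 is generally described as lacking oestrogen and progesterone receptors. In these libraries PGR stood at 974 (ASO-NC) and 1056 CPM (ASO-1235), and ESR1 at 58.2 and 61.4 CPM. The oestrogen-responsive genes GREB1 and TFF1, looked up after this was seen, stood at 579 and 509 CPM and at 436 and 316 CPM. The receptor genes therefore went against the label of the cells in both libraries, and the basal keratins KRT5 and KRT14 were at 0 counts in both. The identity of the cells was not settled. Of 4 lymphocyte markers, 0 reached 1 CPM. PTPRC and CD3E were at 0 in ASO-NC and at 8 and 4 counts in ASO-1235, and MS4A1 had 2 and 0. The summed level of the 2 myeloid markers was 2.18 and 1.13 CPM, that of the 3 fibroblast markers 44.3 and 39.9 CPM, nearly all of it COL1A1, with PDGFRB at 0, and that of the 2 endothelial markers 7.39 and 6.63 CPM. Within these lists LYZ had 98 and 44 counts, a ratio of 0.537 (0.309 to 0.905), PECAM1 0 and 10 counts, and VWF 345 and 249. The part of such cells in the ratios was not tested.

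ZBTB10 had the highest ratio of the 36 expressed members. In ASO-NC it was counted 1764 times, or 37.8 CPM, and in ASO-1235 3561 times, or 91.2 CPM. The ratio was 2.41 (2.23 to 2.62). The gene (ENSG00000205189.13) lies on chromosome 8 from 80485619 to 80526265 on the plus strand (GRCh38, GENCODE 29). Its longest transcript has 7 exons and 10132 bases, of which 2613 are coding and 6737 form the 3′ UTR. In level per kilobase of longest transcript it ranked 24 of the 36 in ASO-NC, at 3.73 CPM per kilobase, and 14 of the 36 in ASO-1235, at 9.0 CPM per kilobase. Among all 14352 tested genes, 204 (1.42%) had a higher ratio. Of the 2870 genes in the same quintile of mean expression, the second highest, 2 did. An antisense gene (ENSG00000251867.4) overlaps the start of ZBTB10 and had 21 and 23 counts, few beside those of ZBTB10.

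**Figure D1:**
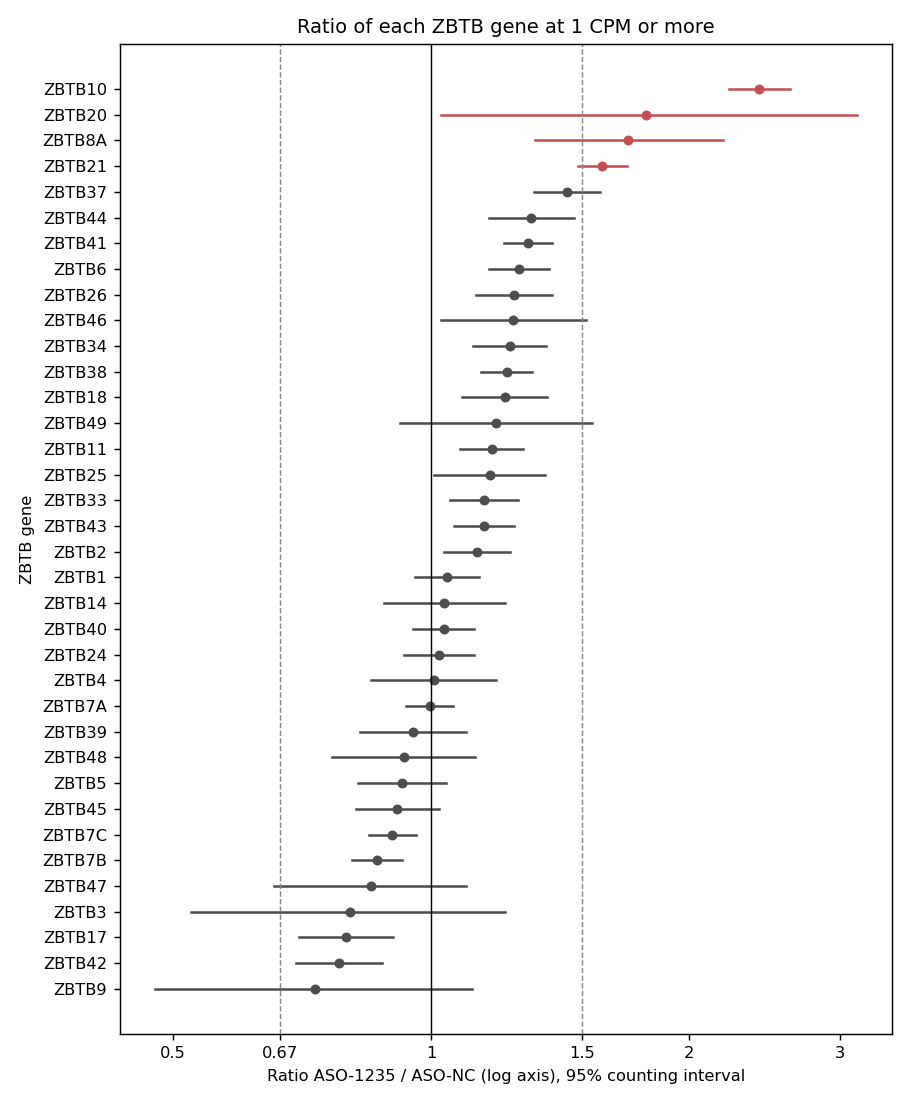
Ratio ASO-1235 over ASO-NC (horizontal log axis) of the 36 ZBTB genes at 1 CPM or more, with 95% counting intervals as lines. Dashed lines mark 1.5-fold, and the 4 genes in red lie beyond it with an interval that excludes 1; ZBTB10 at 2.41 is the only one beyond 2-fold.

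Apart from ZBTB10, 3 members were at least 1.5-fold higher in ASO-1235 with an interval that excluded 1, so that 4 of 36 met this rule, beside 5.20% of all tested genes. Of these 4, ZBTB20 passed the minimum of 1 CPM only in ASO-1235, the library where it was higher. The family was chosen around ZBTB10 with earlier results of these data known, so ZBTB10 adds nothing to the comparison. With both set aside, ZBTB21 and ZBTB8A remain, and the count is not read as an excess. None of the 36 was lower by the same rule (0 of 36), beside 2.0% of all tested genes. Over all genes these shares came from 746 higher and 287 lower genes, and with scaling by total count from 1032 and 180. At 2-fold the single member higher was ZBTB10, beside 2.40% of all tested genes, and 0 were lower, beside 0.495%. The other 32 members lay within 1.5-fold.

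ZBTB21, a repressor known to associate with ZBTB14, was the best measured of the 3. It had 3119 and 4134 counts (66.8 and 106 CPM), which gave 1.58 (1.48 to 1.69). Its gene occupies bases 41986831 to 42010387 of chromosome 21 (minus strand). Of the 14352 tested genes 5.17% had a higher ratio than ZBTB21, and of the 2871 genes in its own quintile of expression, the highest, 9 did. ZBTB8A, on chromosome 1 from 32539427 to 32605939 on the plus strand, was counted 219 and 311 times, which gave 1.70 (1.32 to 2.19). Its 3′ part overlaps ZBTB8OS on the opposite strand, which was counted 749 and 597 times, at 0.953 (0.816 to 1.11). Without a known strand setting, reads of the pair cannot be told apart. ZBTB20, a repressor known from liver and hippocampal development, had 47 and 70 counts (1.01 and 1.79 CPM), a ratio of 1.78 with a wide interval (1.03 to 3.14). The call on ZBTB20 rests on few reads. The minimum of 1 CPM was taken on total counts without TMM scaling, and ZBTB20 met it in ASO-1235 alone. The gene extends over bases 114314501 to 115147271 of chromosome 3 (minus strand).

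Next below 1.5-fold came ZBTB37, whose 1835 and 2209 counts gave a ratio of 1.44 (1.32 to 1.57). It overlaps the start of GAS5, an abundant non-coding RNA on the opposite strand that was counted 7192 and 6740 times, at 1.12 (1.07 to 1.17). ZBTB44 followed at 1.31 (1.17 to 1.47) and ZBTB41 at 1.299 (1.22 to 1.38). At the other end, ZBTB9 had 124 and 76 counts, a ratio of 0.733 whose interval held 1 (0.476 to 1.12). ZBTB42, a close relative of ZBTB18, had 1483 and 969 counts, a ratio of 0.781 (0.695 to 0.877). ZBTB17, or MIZ1, the zinc finger partner of MYC, had 1237 and 824 counts, a ratio of 0.797 (0.701 to 0.904). ZBTB7B, at 4091 and 2957 counts, had 0.864 (0.808 to 0.925), and ZBTB7C, at 4452 and 3356 counts, had 0.901 (0.846 to 0.961). These last 4 were the members whose whole interval lay below 1, while 18 had an interval above 1 and for 14 it held 1. Of all tested genes 22.8% had an interval above 1 and 23.0% one below 1. Whether an interval leaves out 1 depends on depth, and 22 members had at least 1000 counts in both libraries. All tested genes reach down to 1 CPM, so the 2 are not a like comparison. The median GC content also differed, at 43.3% for the members and 48.2% for all tested genes.

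By role, the telomere-binding pair was split. ZBTB48, or TZAP, which trims long telomeres, had 500 and 389 counts. Its ratio was 0.930 (0.767 to 1.13), and the intervals of ZBTB48 and ZBTB10 do not overlap. TERF1 and TERF2, core telomere proteins, were at 1.06 (0.960 to 1.16) and 1.09 (0.989 to 1.21). The 3 members that bind methylated DNA were all within 1.5-fold: ZBTB33, or Kaiso, had 1948 and 1879 counts and a ratio of 1.15 (1.05 to 1.26), ZBTB38 had 1.23 (1.15 to 1.31), and ZBTB4 had 1.01 (0.852 to 1.19). ZBTB7A, a repressor of fetal globin and of glycolytic genes, had 4247 and 3539 counts, 91.0 and 90.6 CPM, with a ratio of 0.996 (0.935 to 1.06). ZBTB7B is best known for directing CD4 T cell fate. ZBTB7B, ZBTB7C and ZBTB7A nevertheless had the highest levels per kilobase of the family in ASO-NC, at 21.8, 19.3 and 16.8 CPM per kilobase.

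**Figure D2:**
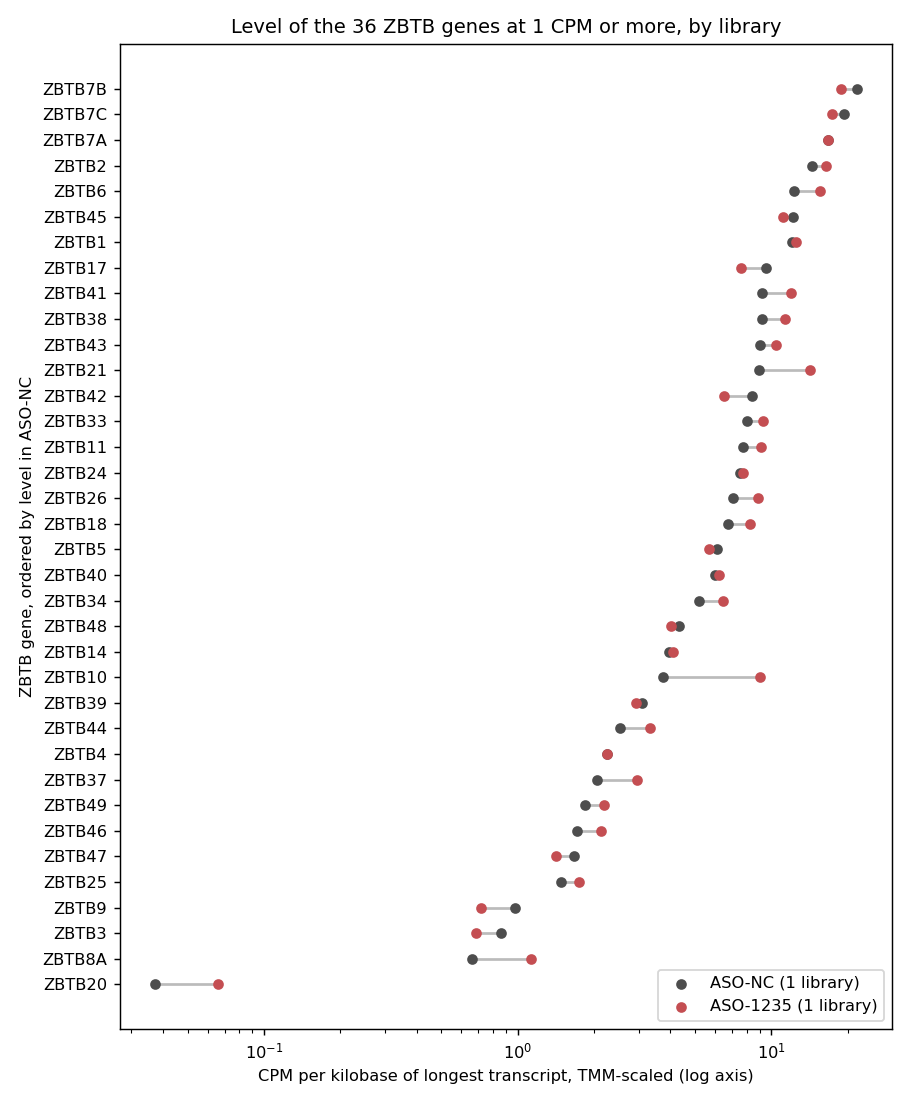
Level of the 36 ZBTB genes at 1 CPM or more in the ASO-NC (grey) and ASO-1235 (red) libraries, in CPM per kilobase of longest transcript on a log axis. The ZBTB7 genes stand at the top, from 16.8 to 21.8 in ASO-NC, and ZBTB10 has the longest line between libraries, from 3.73 to 9.0.

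Members tied to blood cell lineages ranged widely in level. ZBTB16, or PLZF, had 6 and 4 counts, and ZBTB32, a regulator in lymphocytes, had 18 and 35, a ratio of 2.33 whose interval held 1 (0.986 to 5.90). ZBTB46, a marker of classical dendritic cells, was at 8.87 and 11.1 CPM with a ratio of 1.248 (1.03 to 1.52). ZBTB1, needed for lymphoid development, and ZBTB24, mutated in an immunodeficiency syndrome with centromere instability, were at 1.04 (0.958 to 1.14) and 1.02 (0.930 to 1.12). ZBTB24 overlaps MICAL1, counted 812 and 429 times, at 0.632 (0.533 to 0.747). CDCA7, a gene that ZBTB24 activates, had 3113 and 2039 counts, a ratio of 0.783 (0.723 to 0.848). Also under 1 CPM were ZBTB22 with 32 and 14 counts, ZBTB12 with 11 and 9, and ZBTB8B with 0 and 4. ZBTB9, ZBTB12 and ZBTB22 all lie on chromosome 6 between 31899607 and 33457548.

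Of the members tied to MYC, p53 or the cell cycle, ZBTB2 was at 1.13 (1.04 to 1.24). ZBTB5 was at 0.925 (0.823 to 1.04) and ZBTB49, from 248 and 247 counts, at 1.19 (0.921 to 1.54). ZBTB17, the MYC partner, was the lowest of this group at 0.797 (0.701 to 0.904). CDKN1A, the p21 gene, had 1182 and 1527 counts, a ratio of 1.54 (1.39 to 1.72). It was the only one of 11 tested genes reported under ZBTB factors that passed 1.5-fold with an interval excluding 1, or 9.09% beside 5.20% of all tested genes, a difference that a single gene makes. MYC was at 0.965 (0.915 to 1.02), the glycolytic genes PFKP and PKM at 0.850 (0.802 to 0.902) and 0.834 (0.821 to 0.847), and MXD1 at 1.303 (1.16 to 1.47). WNT11, at 1.58 from 34 and 45 counts, had an interval that held 1 (0.806 to 3.16). The median log2 ratio of these 11 was 0.09. The 4 SP genes, which share binding sites with ZBTB10, had a median of 0.16: SP1 was at 1.11 (1.05 to 1.17), SP2 at 0.932 (0.845 to 1.03), SP3 at 1.12 (1.08 to 1.17) and SP4 at 1.38 (1.16 to 1.65).

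Partners of the BTB domain were read in the same way. Of 19 tested corepressor, deacetylase and CUL3 complex genes, 0 passed 1.5-fold in either direction, beside 5.20% (higher) and 2.0% (lower) of all tested genes, which in a list of this length is near the background. Their median log2 ratio was 0.01. CUL3 was at 0.991 (0.932 to 1.05) and BCOR at 1.08 (1.03 to 1.13). The highest were TBL1XR1, a subunit of the NCOR complex, at 1.35 (1.28 to 1.43) and HDAC4 at 1.21 (1.04 to 1.41), and the lowest HDAC3, the deacetylase of that complex, at 0.846 (0.774 to 0.924) and HDAC1 at 0.881 (0.803 to 0.966). The 6 tested BTB zinc finger genes that carry other symbols had a median log2 ratio of −0.05. MYNN and GZF1 were highest at 1.31 (1.17 to 1.46) and 1.10 (0.984 to 1.22), HIC2 and PATZ1 lowest at 0.800 (0.612 to 1.04) and 0.911 (0.868 to 0.957).

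Of the remaining members, ZBTB18, a repressor in neural development, was at 1.22 (1.09 to 1.37) and ZBTB11 at 1.18 (1.08 to 1.28). ZBTB14 was at 1.04 (0.880 to 1.22), ZBTB39 at 0.952 (0.825 to 1.10) and ZBTB47 at 0.850 (0.655 to 1.10).

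As a family, the 36 ZBTB genes leaned upward by a small amount. The ratio was above 1 for 24 and below 1 for 12, with a median log2 ratio of 0.19, beside 0.00 over all tested genes. Without ZBTB10 the median of the family was 0.18. Of all tested genes, 50.1% had a ratio above 1. Summed over the 41 members, the level was 1288 CPM (ASO-NC) and 1481 CPM (ASO-1235), a ratio of 1.15, or 1.11 without ZBTB10. The ZNF and KLHL families, which each share a single domain type with ZBTB proteins, had medians above 0, unlike the 6 BTB zinc finger genes with other symbols (−0.05, with 2 of 6 ratios above 1). The 433 tested genes named ZNF with a number, most of them zinc finger factors without a BTB domain, had a median of 0.10 and 65.4% of ratios above 1. The 26 tested KLHL genes, whose proteins carry a BTB domain and Kelch repeats, had a median of 0.10 and 69.2% above 1. At 1.5-fold 17 ZNF genes (3.93%) were higher and 4 (0.924%) lower, and 2 KLHL genes (7.69%) were higher and 0 lower, beside 5.20% and 2.0% of all tested genes. A ratio as high as that of ZBTB10 was reached by 3 ZNF genes and 0 KLHL genes.

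**Figure D3:**
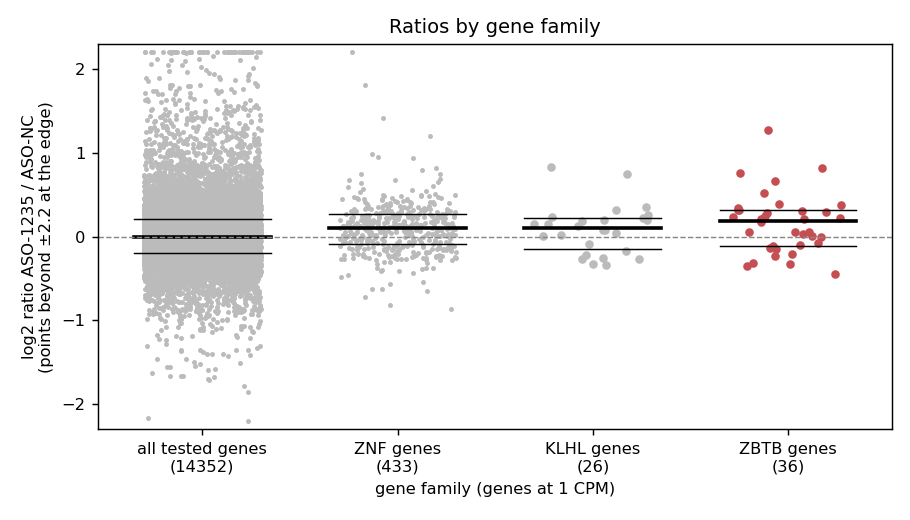
Log2 ratio ASO-1235 over ASO-NC of all tested genes, ZNF, KLHL and ZBTB genes (numbers under the axis), 1 point per gene, with the median as a thick line and the quartiles as thin lines. The medians are 0.00, 0.10, 0.10 and 0.19, and ZBTB10 is the top point of its family at 1.27.

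The ratios of the ZBTB genes tended to be lower where the GC content of their transcripts was higher. All 20 expressed members with a longest transcript under 45% GC had ratios above 1, from ZBTB24 (41.6% GC, 1.02) to ZBTB10 (39.9% GC, 2.41). Among them the intervals of ZBTB24, ZBTB14 and ZBTB1 held 1. Of the 13 members over 50% GC, 10 had ratios below 1. The exceptions were ZBTB46 (58.2% GC) at 1.248, ZBTB40 (51.0% GC) at 1.04 and ZBTB4 (57.2% GC) at 1.01. The 3 members from 45 to 50% GC were ZBTB49 at 1.19, ZBTB39 at 0.952 and ZBTB5 at 0.925. By quintile of GC content, from lowest to highest, the median log2 ratio of all tested genes was 0.21, 0.10, −0.01, −0.12 and −0.19. The share of all tested genes with ratios above 1 in these GC ranges was not computed. Members with the most AT-rich transcripts, ZBTB41 (32.5% GC) and ZBTB6 (34.9% GC), stood at 1.299 and 1.27, while the most GC-rich, ZBTB45 (65.4% GC), stood at 0.914 (0.816 to 1.02). With scaling by total count the ratios of ZBTB7A and ZBTB39 moved above 1, and 26 of 36 were then above 1.

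Across the 36 members Pearson's r between GC content and log2 ratio was −0.68 and Spearman's rho −0.77, as a description of genes that share the same pair of libraries. Without ZBTB10, r was −0.72. The straight-line change was −0.25 in log2 ratio per 10 percentage points of GC, or −0.23 without ZBTB10. Over the 14020 tested genes whose GC content was known it was −0.16, with r of −0.32 and rho of −0.46. Transcript length went with the ratio too (r of 0.60 across members), and longer ZBTB transcripts had less GC (r of −0.40). GC content of the 3′ UTR alone gave r of −0.59 over 34 members and that of the coding part −0.46 over 35. For the KLHL genes r was −0.69 and for the ZNF genes −0.25.

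**Figure D4:**
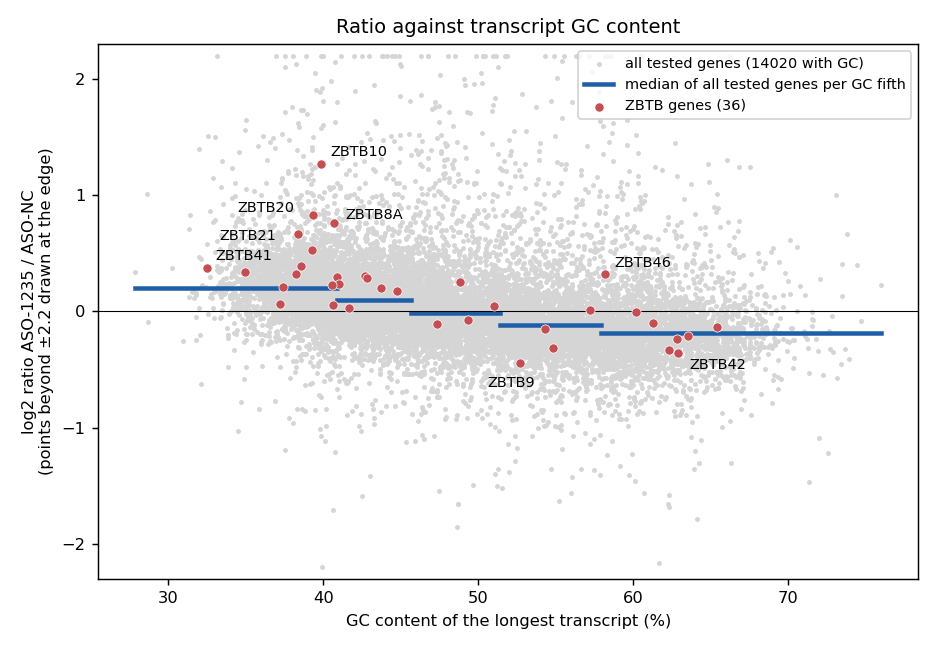
Log2 ratio ASO-1235 over ASO-NC against GC content of the longest transcript, with all tested genes in grey, ZBTB genes in red and the median of all tested genes in each quintile of GC content as blue bars. The bars step down from 0.21 to −0.19, and ZBTB10, at 39.9% GC and 1.27, lies above the bar of its quintile.

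All tested genes of like GC content leaned the same way. In the quintile of tested genes with the lowest GC content (27.8 to 40.9%), the median log2 ratio was 0.21 over 2804 genes and 0.36 over the 14 ZBTB members there. In the highest quintile (57.9 to 76.0%) it was −0.19 over 2804 genes and −0.17 over 8 members. All 4 members at 1.5-fold lie in the lowest quintile, 4 of 14, where 8.67% of all tested genes were called higher. The 4 include ZBTB10, around which the family was chosen, and ZBTB20, which passed the minimum level only in ASO-1235. Within that quintile, 48 of 2804 genes (1.71%) had a higher ratio than ZBTB10, and 7.13% a higher one than ZBTB21. Among the 662 genes that share both the GC quintile and the expression quintile of ZBTB10, 2 had a higher ratio.

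A spline trend on GC content and transcript length, fitted to all tested genes, was then subtracted. At the GC content and length of ZBTB10 the trend stood at 0.24, which left 1.03 (0.91 to 1.15) of the log2 ratio of 1.27, or 2.04-fold. By this measure 300 genes (2.14%) were higher than ZBTB10. It was then the only member past 1.5-fold with an interval that excluded 1, beside 4.42% of the tested genes, and 0 members were lower, beside 1.37%. ZBTB8A was left at 1.48-fold, ZBTB20 at 1.44-fold, ZBTB46 at 1.36-fold and ZBTB21 at 1.34-fold. At the low end, ZBTB9 was left at 0.783-fold, ZBTB3 at 0.875-fold and ZBTB42 at 0.882-fold. After removal the intervals of ZBTB20, ZBTB9 and ZBTB3 held 1, and those of ZBTB8A, ZBTB46, ZBTB21 and ZBTB42 did not. The median of the 36 was 0.07 in place of 0.19, beside −0.02 for all tested genes, with 22 members above 0 and 14 below. Of the 14020 tested genes with known GC content, 6639 were above 0. After removal the median was 0.02 for the ZNF genes and −0.03 for the KLHL genes. The correlation of the 36 members with GC content was −0.28 after removal. What the GC trend arises from was not tested.

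**Figure D5:**
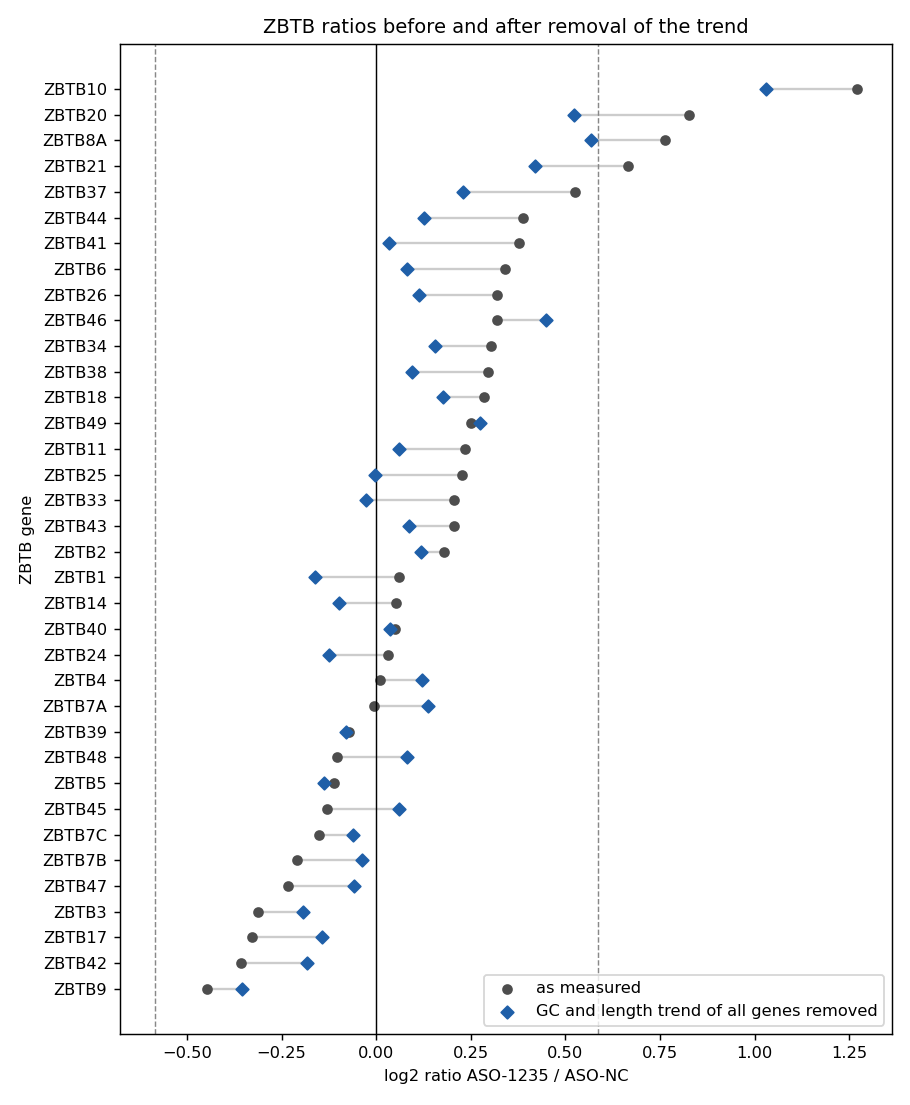
Log2 ratio ASO-1235 over ASO-NC of each of the 36 ZBTB genes as measured (grey circles) and with the trend of all tested genes subtracted (blue diamonds), with dashed lines at 1.5-fold. ZBTB10 alone stays past the dashed line, at 1.03.

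In both pairs of expressed neighbours that do not overlap, the intervals of the ratios overlapped. ZBTB6 and ZBTB26, both on the minus strand of chromosome 9 and 2.24 kb apart, were at 1.27 (1.17 to 1.37) and 1.249 (1.13 to 1.38). ZBTB43 and ZBTB34, on the plus strand of the same chromosome and 22.5 kb apart, were at 1.15 (1.06 to 1.249) and 1.23 (1.12 to 1.36). ZBTB25 and ZBTB1 overlap head to head on chromosome 14, and reads in the shared stretch cannot be assigned without strand. ZBTB25, at 1.17 (1.01 to 1.36), also overlaps MTHFD1, which was counted 6407 and 4176 times, at 0.779 (0.737 to 0.824).

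Mean GC content over the promoter entries of a gene was less closely related to the ratio than GC content of the transcript. The mean takes in every entry of a gene, and which start these cells use was not known. RefSeq promoters (GRCh38.p14, bases −250 to 50 around the start) were found for 35 of the 41 members and not for ZBTB10, ZBTB6, ZBTB16, ZBTB17, ZBTB40 and ZBTB41. Over the 31 expressed members with an entry, mean promoter GC content and log2 ratio had r of −0.21, and over the same 31 transcript GC content had r of −0.69. As examples, bases −250 to −51 before the start are printed for 2 members called higher and 2 with ratios below 1. The interval of 1 of the latter, ZBTB3, holds 1. So few stretches cannot show a relation over 31 members. The bases in capitals are GC boxes (GGGCGG, or CCGCCC on the other strand) and CCAAT boxes (CCAAT, or ATTGG).
ZBTB21, chr21:42010411-42010610, minus strand: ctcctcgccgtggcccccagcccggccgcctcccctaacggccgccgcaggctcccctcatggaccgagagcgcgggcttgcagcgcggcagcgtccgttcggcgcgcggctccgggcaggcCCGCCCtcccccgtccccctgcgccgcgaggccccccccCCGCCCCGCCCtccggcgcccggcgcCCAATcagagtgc
ZBTB8A, chr1:32539177-32539376, plus strand: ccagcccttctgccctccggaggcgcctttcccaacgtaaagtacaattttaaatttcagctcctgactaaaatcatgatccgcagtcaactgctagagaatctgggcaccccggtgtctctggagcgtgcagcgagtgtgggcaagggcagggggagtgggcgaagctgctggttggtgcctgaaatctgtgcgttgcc
ZBTB7B, chr1:155002399-155002598, plus strand: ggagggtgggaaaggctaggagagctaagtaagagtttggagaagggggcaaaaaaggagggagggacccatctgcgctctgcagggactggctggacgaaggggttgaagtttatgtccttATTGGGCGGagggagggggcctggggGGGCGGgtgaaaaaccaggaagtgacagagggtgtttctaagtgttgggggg
ZBTB3, chr11:62754211-62754410, minus strand: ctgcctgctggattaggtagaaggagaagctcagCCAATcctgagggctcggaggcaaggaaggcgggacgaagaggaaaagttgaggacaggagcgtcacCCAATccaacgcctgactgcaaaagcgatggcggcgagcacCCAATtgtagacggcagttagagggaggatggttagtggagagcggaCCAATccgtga

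ZBTB21, whose transcript holds 38.4% GC, has the most GC-rich of these stretches, at 82.0%, with 3 GC boxes and 1 CCAAT box. ZBTB8A (transcript 40.7% GC) is at 56.5% with neither motif. ZBTB7B (transcript 63.6% GC) is at 58.0% with 2 GC boxes and 1 CCAAT box, which overlaps a GC box. ZBTB3, which had 119 and 80 counts and a ratio of 0.804 (0.525 to 1.22), is at 57.0% with 4 CCAAT boxes. Both motifs occur on each side, in ZBTB21 and in ZBTB7B.

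Over whole promoter entries, searched on both strands, GC boxes were in 60.3% of 68 entries of ZBTB genes and in 44.95% of all 35116 entries, and CCAAT boxes in 39.7% and 34.6%. Median GC content was 62.3% over the entries of ZBTB genes and 58.7% over all entries. Its part in the motif shares was not tested. The full cyclic AMP response element TGACGTCA was found for 4 members, ZBTB11, ZBTB21, ZBTB38 and ZBTB48, or 5.88% of their entries against 1.85% of all. The Kaiso site TCCTGCNA, which ZBTB33 is known to bind, was found for 5 members, ZBTB7C, ZBTB18, ZBTB20, ZBTB38 and ZBTB47, or 7.35% of entries against 4.69% of all. The E-box CACGTG was in 11.8% of entries against 7.26% of all, while the telomere repeat variant TTGGGG was less frequent, in 16.2% against 20.1%. Among the 4 members with TGACGTCA the ratios ran from 0.930 (ZBTB48) to 1.58 (ZBTB21). Members contribute from 1 to 10 entries each, so entries are not independent, and a match of letters is no evidence of binding.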

How the data were processed

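Members and lists were chosen with earlier results of these data known. The values are unnormalized counts per gene as the authors deposited them. The submitters' processing notes name STAR 2.7.11a, featureCounts 2.0.6 and hg38; for annotation release and strand setting the sources used here give nothing. A gene ID without counts and 2 lines of coordinates were left out. Biotype, position, GC content and length (longest transcript) came from GENCODE 29.

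Libraries were scaled by TMM (edgeR 4.0.16, R 4.3.3) over genes at 1 CPM; edgeR ran no test. Among genes with 1 to 1000 counts, 67.5% (ASO-NC) and 64.0% (ASO-1235) of counts were even, so mates may be counted singly. Of the members, 40 and 41 with any count above 0, 52.5% and 39.0% had even counts. This range is wider than that of the all-gene shares, so the 2 are not a like comparison. Intervals (scipy 1.17.1) used counts divided by 2, the wider choice. Without molecular identifiers, PCR copies are counted too. Log2 ratios used a prior count of 0.5. The trend was a robust fit (statsmodels 0.14.6) of B-splines, 5 degrees of freedom for GC content and for log2 length. Scripts were tested on simulated data.

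Named were ZBTB10, members past 1.5-fold, the 6 highest, lowest and most abundant members, all others by value or count, and the highest and lowest genes of each list. Other genes, including overlapping ones, were named after their values were seen. Alternatives were DESeq2 1.42.0 size factors, upper-quartile and total-count scaling, other minimum levels, folds, intervals and prior counts, and trend removal. Values of some list genes are not reported here.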

Additional observations from a re-analysis of the deposited data

How the results depend on the processing

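ZBTB10 kept a log2 ratio of 1.27 to 1.36 under the 3 other scalings and the larger prior count, and 1.03 with the GC and length trend removed. The number of members called higher was 4, and 4 or 5 under the other scalings, 3 to 4 with other minimum levels, and 4 with intervals on the counts as deposited. Over all tested genes it was 746, and 742 to 1032, 279 to 1126 and 919 under the same alternatives. The number of tested genes also changes with the minimum level. Of the members, 1 was called higher with the trend removed, beside 4.42% of the tested genes, and 1 at 2-fold, beside 2.40%. When a difference of 25% was enough, 8 were called higher, a rule that 12.0% of all tested genes met as higher and 8.79% as lower. The number called lower was 0 under every alternative run except that of 25%, where it was 2. Over all tested genes the number called lower ran from 71 at 2-fold to 1262 at 25%. The median log2 ratio of the members stayed above 0, from 0.07 with the trend removed to 0.28 with total-count scaling, which moved the median of all tested genes to 0.09. ZBTB7A changed side with upper-quartile scaling, ZBTB7A and ZBTB39 with total-count scaling, and 8 members with the trend removed. Pearson's r with GC content was −0.40 over all 41 members with no minimum level, −0.53 over the 38 at 0.5 CPM and −0.46 with the GC content of the coding part. With no minimum, members of under 50 counts, such as ZBTB8B with 0 and 4, enter the correlation. The alternatives on the coding part, on the 3′ UTR, without ZBTB10 and on members with at least 1000 counts in both libraries (r of −0.61) were chosen after the data were seen. No paired analysis was possible because each group has 1 library, and leaving out a replicate was not possible for the same reason. Depth limits ZBTB20, ZBTB9, ZBTB3 and the 5 members under 1 CPM, whose intervals span 2-fold or more.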
